A study of Mus musculus with 4 samples.

Results

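The genes described here write, read or remove 2 chromatin marks of gene silencing, trimethylation of histone H3 at lysine 27 and methylation of DNA at cytosine. All 10 genes of the set, Ezh2, Ezh1, Eed, Suz12, Dnmt1, Dnmt3a, Dnmt3b, Uhrf1, Tet2 and Tet3, were taken by name from the 31053 genes counted in each library, and no measured value was used to choose them. Single thymocytes of FVB/N mice were profiled by droplet-based 3′ RNA sequencing (10x Genomics) in 4 libraries, each from 1 thymus. WT was a wild-type mouse of 6 weeks, preleukemic a Tal1/Lmo2 transgenic mouse of 6 weeks without leukemia, and T-ALL#1 and T-ALL#2 were Tal1/Lmo2 mice of 3 months with T-cell acute lymphoblastic leukemia. Both transgenes were driven by the proximal Lck promoter, which is active in thymocytes, and cells had been sorted as viable (7-AAD negative) after red cell lysis.

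Cells were kept with more than 500 genes and under 10% mitochondrial UMIs (unique molecular identifiers, the count of transcripts), and in T-ALL#2, whose matrix lists every barcode, with at least 3416 UMIs. This left 4220 WT cells with 24042062 UMIs, 5576 preleukemic cells with 40851235 UMIs, 5773 T-ALL#1 cells with 70745712 UMIs and 1975 T-ALL#2 cells with 36236569 UMIs. The median depth was 3800.5, 4888, 8742 and 17581 UMIs per cell in that order, and any pair of libraries shared 0 to 9 barcodes. The Tal1 transgene was visible at 410, 68.3 and 234 UMIs per 1000000 UMIs (CPM) in the preleukemic, T-ALL#1 and T-ALL#2 libraries and at 0 UMIs in WT, whereas Lmo2 stayed between 0.276 and 4.48 CPM in all libraries. The 5 T-cell markers Cd3e, Cd3d, Cd3g, Lck and Cd2 were detected in every library, and cells with B, myeloid or erythroid markers numbered 12 to 31 per library. WT and preleukemic are labelled male, yet Xist stood at 1380 and 1869 CPM and 4 Y-linked genes at 1 and 5 UMIs in all, so these libraries go against their labels. T-ALL#1, labelled female, had Xist at 1932 CPM and 1 Y-linked UMI, and T-ALL#2, labelled male, had Xist at 0.0828 CPM and 4413 Y-linked UMIs, the only library with more than a few. For these reasons every test was repeated without each library. WT and preleukemic were 1 mouse each, leukemia came with greater age, and T-ALL#2 alone was made with another Cell Ranger version and its cells were called here by a UMI limit, and it alone was male by expression, so none of these can be told apart from the group or the animal.

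Polycomb repressive complex 2 (PRC2) places the histone mark through an enzyme, Ezh2 or Ezh1, that works only within a core holding Eed and Suz12. Ezh2 is the form of dividing cells and Ezh1 that of resting cells in many tissues, and loss of PRC2 function is a recurrent lesion in human T-ALL. DNA methylation is copied at replication by Dnmt1, which Uhrf1 recruits to newly made DNA, and is set up anew by Dnmt3a and Dnmt3b. Tet2 and Tet3 oxidise methylated cytosine and so start its removal. Because several of these genes follow the cell cycle, and leukemic thymi divide more, a difference between libraries can come from the share of dividing cells alone. Cells were therefore divided into cycling cells, with at least 1 UMI of Mki67 or Top2a (markers of dividing cells), and non-cycling cells with neither.

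Cycling cells made up 20.6% of WT, 23.8% of preleukemic, 47.9% of T-ALL#1 and 61.9% of T-ALL#2 cells. When each cell was thinned to 2000 UMIs, so that depth per kept cell was equal, the shares were 18.2%, 13.7%, 31.1% and 28.2%. T-ALL#2 alone had the limit of 3416 UMIs per cell, above the median of non-cycling WT cells. Its shares thus lack cells of low counts that other libraries kept, with or without thinning. At full depth, non-cycling cells had a median of 3280, 4316, 4788 and 11194 UMIs and cycling cells of 9866.5, 12890, 18481 and 22654. Undetected markers leave some dividing cells among the non-cycling ones. With an S phase cell defined by at least 2 UMIs of a list of 12 replication genes, S phase cells made up 9.88% of non-cycling WT cells, 17.3% of preleukemic, 25.5% of T-ALL#1 and 50.3% of T-ALL#2. This count rises with depth, and on cells thinned to 2000 UMIs the shares were 6.02%, 10.5%, 19.8% and 31.9%.

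All 10 genes differed between cycling and non-cycling cells across the 4 libraries. Uhrf1, Dnmt1, Ezh2, Suz12, Dnmt3b and Eed rose in cycling cells, whereas Tet2, Ezh1, Dnmt3a and Tet3 fell. The edgeR quasi-likelihood test, with each library as a block, had an adjusted p under 0.05 for 52.6% of the 11861 genes tested, 26.1% of them higher and 26.5% lower in cycling cells. The median log2 difference of the 10 genes was 0.75, against -0.04 over all genes tested. Cells of a library share an animal and were classed by the same libraries' depth, so the test measures whether the difference repeated over 4 mice of 3 kinds.

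**Figure D1:**
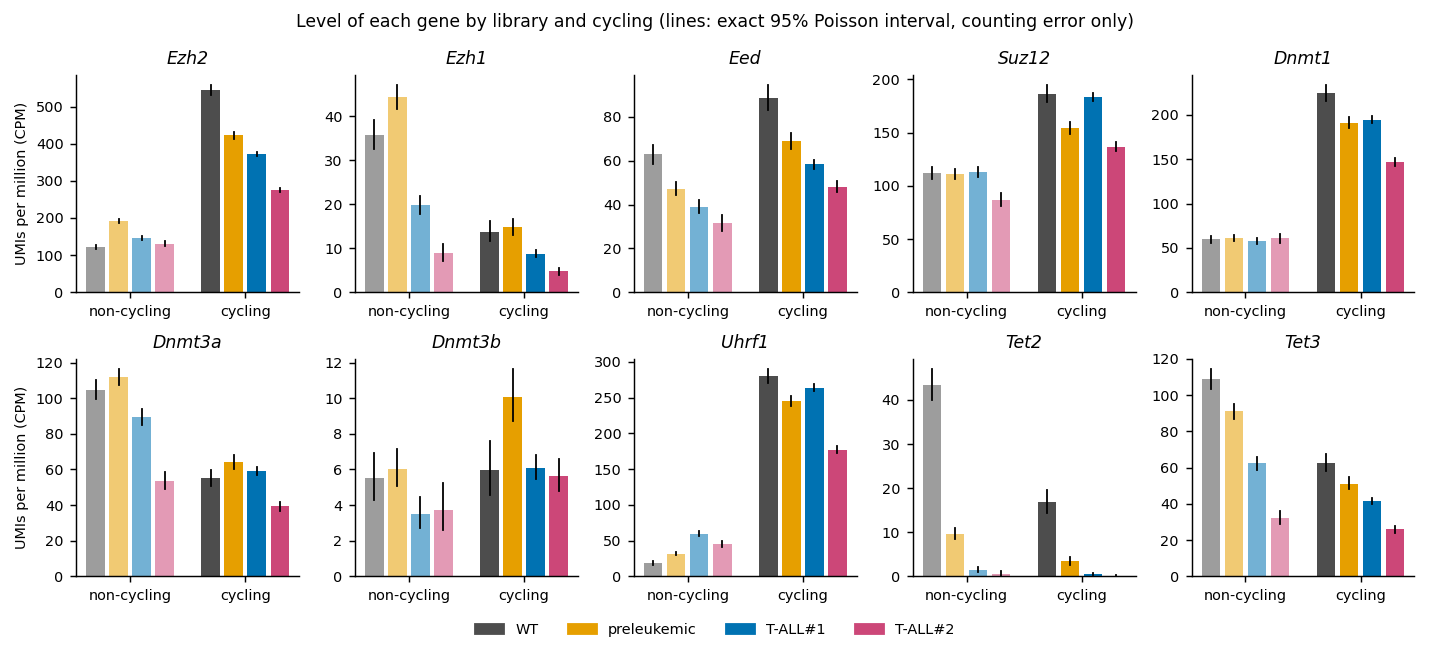
CPM of each of the 10 genes, in non-cycling (pale bars) and cycling cells (full bars) of the 4 libraries, with black lines for the exact 95% Poisson interval, which covers counting error only. Bars start at 0 and each panel has its own scale, since levels of different genes are not comparable in 3′ counts. Ezh2, Dnmt1 and Uhrf1 are higher in the cycling cells of every library, and Tet2 nearly disappears from both leukemias in both states.

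Ezh2 (chr6:47530139-47595341, minus strand, GRCm38) stood at 121, 192, 145 and 131 CPM in the non-cycling cells of WT, preleukemic, T-ALL#1 and T-ALL#2. In cycling cells of the same libraries it stood at 544, 423, 372 and 275 CPM, so every cycling value lay above every non-cycling one. Within libraries the level was higher in cycling cells by a factor of 4.49 in WT, and of 2.21, 2.57 and 2.11 in the preleukemic, T-ALL#1 and T-ALL#2 libraries. The fitted log2 difference was 1.61 ± 0.20 (SE, 4 libraries, edgeR adjusted p = 0.00089).

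Ezh1, the enzyme that takes the place of Ezh2 in resting cells of many tissues, went the other way. Its level was 35.8, 44.3, 19.8 and 8.89 CPM in non-cycling cells and 13.8, 14.8, 8.69 and 4.72 CPM in cycling cells, in the same order of libraries. It was lower in the cycling cells of each library, by 1.88-fold in T-ALL#2 to 3.00-fold in preleukemic, and fell by 1.11 on the log2 scale in the fit (SE 0.11, edgeR adjusted p = 0.000397).

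The other core subunits moved less than Ezh2. Eed, which binds the mark and holds the complex on it, stood at 62.9, 47.2, 39.0 and 31.4 CPM in non-cycling cells and at 88.8, 68.9, 58.4 and 48.2 CPM in cycling cells. Its ratio was nearly the same in all libraries, 1.41 to 1.53, and the fitted log2 difference was 0.73 ± 0.08 (edgeR adjusted p = 0.000426). Suz12, the scaffold of the core, stood at 112, 111, 113 and 86.8 CPM in non-cycling cells against 186, 154, 183 and 137 CPM in cycling cells, with a fitted difference of 0.81 ± 0.08 (edgeR adjusted p = 0.000453). In WT the 4.49-fold ratio of Ezh2 stood beside 1.41-fold for Eed and 1.67-fold for Suz12.

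Uhrf1 (chr17:56303321-56323486, plus strand) showed the largest cycling difference of the set. Non-cycling cells held 18.7, 31.7, 59.8 and 44.9 CPM and cycling cells 280, 245, 264 and 177 CPM in WT, preleukemic, T-ALL#1 and T-ALL#2. The ratio was 15 in WT and 7.73 in preleukemic but 4.42 in T-ALL#1 and 3.95 in T-ALL#2, and the libraries differed mainly in the level of their non-cycling cells. With S phase cells left out of the non-cycling cells the ratios were 20.8, 15.5, 6.65 and 13.1, so that T-ALL#1 alone stood apart and T-ALL#2 lay near preleukemic. The fitted log2 difference was 2.90 ± 0.35 (edgeR adjusted p = 0.00113), larger than that of 98.5% of the genes tested. A UMI of Uhrf1 was found in 5.46%, 9.53%, 21.9% and 28.7% of non-cycling cells and in 56.3%, 60.2%, 78.8% and 74.7% of cycling cells. At 2000 UMIs per cell these shares were 3.60%, 6.12%, 14.9% and 11.8% against 35%, 32.4%, 35.7% and 28.5%. No cell type of these sorted thymi was taken to lack Uhrf1, so the share that free RNA alone would give was not measured.

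Dnmt1, the enzyme that Uhrf1 recruits, was at a like CPM in the non-cycling cells of all 4 libraries, 59.5, 60.8, 57.3 and 60.9 CPM, with S phase cells kept. The median non-cycling gene stood at a log2 ratio to WT of -0.58 in T-ALL#2 and -0.16 in T-ALL#1, a shift that CPM does not remove. In cycling cells Dnmt1 stood at 225, 191, 195 and 147 CPM, 2.42-fold to 3.78-fold higher within libraries. The fitted log2 difference was 1.83 ± 0.14 (edgeR adjusted p = 0.000181).

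The enzymes of new DNA methylation moved in opposite directions. Dnmt3a stood at 105, 112, 89.4 and 53.5 CPM in non-cycling cells and 55.1, 64.1, 59.0 and 39.3 CPM in cycling cells, and fell by 0.52 in the fit (SE 0.09, edgeR adjusted p = 0.00234). Dnmt3b stood at 5.49, 6.03, 3.49 and 3.73 CPM in non-cycling and 5.95, 10.1, 6.11 and 5.64 CPM in cycling cells. Its WT ratio was 1.08 against 1.51 to 1.75 in the other libraries, and its fitted difference of 0.76 ± 0.17 (edgeR adjusted p = 0.00766) had an edgeR adjusted p of 0.0502 without T-ALL#1.

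Both demethylases were lower in cycling cells. Tet3 stood at 109, 91.0, 62.4 and 32.3 CPM in non-cycling cells and 62.6, 51.2, 41.5 and 25.8 CPM in cycling cells, and fell by 0.47 (SE 0.09, edgeR adjusted p = 0.00374). Tet2 (chr3:133463679-133545139, minus strand) stood at 43.4, 9.63, 1.51 and 0.439 CPM in non-cycling cells and at 16.8, 3.38, 0.504 and 0.0369 CPM in cycling cells. These levels rest on 576, 214, 29 and 4 UMIs in non-cycling cells and on 181, 63, 26 and 1 UMIs in cycling cells. In WT, where counts were highest, Tet2 was 2.58-fold lower in cycling cells, and it fell by 1.30 in the fit (SE 0.19, edgeR adjusted p = 0.0015). The WT fall was not seen in cells with Cd4 detected and Cd8a not, as given below. The ratio of T-ALL#2, 0.084 with an exact interval from 0.0017 to 0.848, says little with so few UMIs.

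**Figure D2:**
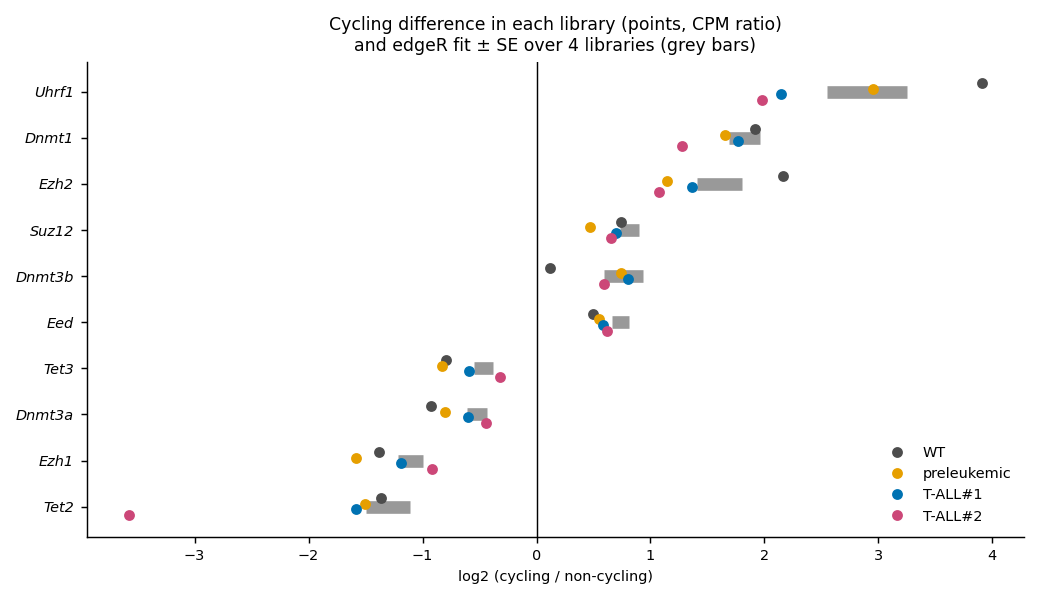
Log2 ratio of the level in cycling to that in non-cycling cells for each gene: points are the CPM ratios of the 4 libraries and grey bars the edgeR fit ± SE. Uhrf1 lies farthest to the right, with WT at 3.91 and T-ALL#2 at 1.98, and the points of Ezh1, Tet2, Tet3 and Dnmt3a all lie left of 0. The fit is scaled by TMM (trimmed mean of M values), so grey bars of lower genes sit to the right of the CPM points.

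Without the library block, the test called 5 of the 10 genes, Ezh2, Eed, Suz12, Dnmt1 and Uhrf1. In both leukemic libraries alone, an alternative chosen after seeing the sex-linked genes, 9 of 10 were called. Tet3 had a log2 difference of -0.34 (edgeR adjusted p = 0.058) there. The share of all genes called in that fit is not given here, so the 9 have no background. With all 4 libraries the share was 52.6%. On cells thinned to 2000 UMIs, Uhrf1 had a log2 difference of 2.26 (edgeR adjusted p = 0.0512).

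Promoter sequence was read for all 10 genes, since E2F factors drive many genes of S phase. All 10 genes matched the RefSeq table (GRCm38.p6) by symbol, with 15 start sites, each with 250 bases before and 50 after the start. Searched on both strands for TTTCGCGC, TTTGGCGC, TTTCCCGC and TTTGCCGC, the E2F type of site, the windows of Ezh2, Suz12, Dnmt1 and Uhrf1 held 5 matches. These matches lay in 4 of the 15 windows of the set. Of all 32851 promoter windows of that length in the table, 2.27% held a match. Each of the 4 genes with a match rose in cycling cells, and no window of the other 6 genes, Eed and Dnmt3b among them, held these letters. Capitals below mark the match in a stretch of 30 bases, 5′ to 3′ on the strand of the gene.
Uhrf1, chr17:56304117-56304146, match beginning 185 bases before the second of 2 listed starts: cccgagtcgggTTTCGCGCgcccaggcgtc
Dnmt1, chr9:20952824-20952853, 219 bases before the third of 3 listed starts, on the other strand: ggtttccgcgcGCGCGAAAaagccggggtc
Dnmt1, chr9:20952574-20952603, 33 bases after the same start: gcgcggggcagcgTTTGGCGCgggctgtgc
Ezh2, chr6:47595009-47595038, 3 bases after its start: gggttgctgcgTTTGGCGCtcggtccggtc
Suz12, chr11:79992876-79992905, 219 bases before its start: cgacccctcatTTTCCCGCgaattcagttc
A match is a description of sequence and not evidence of binding. The CHR element of mitotic genes (TTTGAA or TTCGAA) was in 4 of the 15 windows, those of Eed, Suz12, Dnmt1 and Dnmt3b, and in 19.2% of all windows. CCAAT was in 8 of the 15 windows, from 6 genes with Tet3 among them, and in 37.4% of all windows.

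Next, leukemic and non-leukemic libraries were compared with cycling held fixed. The test set T-ALL#1 and T-ALL#2 against WT and preleukemic, so the non-leukemic side mixes 2 genotypes. In non-cycling cells no gene passed among 12088 tested (0% called by edgeR), although 3007 had an unadjusted p under 0.05 and DESeq2 called 1565. Among the 10 genes, none passed, 4 had an unadjusted p under 0.05, and DESeq2 called 3, Tet2, Uhrf1 and Ezh1. On simulated counts of this comparison, the edgeR test recovered 1% of genes changed 2-fold and 32% of genes changed 4-fold, so the design could show only large differences. In cycling cells, edgeR called 3 of 12136 genes (0.0247%) and none of the 10, of which 2 had an unadjusted p under 0.05, and DESeq2 called 1400 genes and Tet2 among the 10.

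Tet2 had the largest leukemic difference of the set. In non-cycling cells the leukemic values, 1.51 (exact 95% interval 1.01 to 2.17) and 0.439 CPM (0.12 to 1.12), lay below the preleukemic 9.63 (8.38 to 11) and the WT 43.4 CPM (39.9 to 47.0). The fitted log2 difference was -4.38 ± 0.96 (edgeR adjusted p = 0.121) in non-cycling and -4.87 ± 1.27 (edgeR adjusted p = 0.148) in cycling cells. Without the preleukemic library, the non-cycling difference was -5.09 (edgeR adjusted p = 0.00313), and without WT it was -2.97 (edgeR adjusted p = 0.0581). Over each library left out it ranged from -5.34 to -2.97 in non-cycling and from -7.47 to -3.38 in cycling cells. In non-cycling DP cells alone, those with both Cd4 and Cd8a detected, it was -4.71 (edgeR adjusted p = 0.0236). This value rests on 213, 13, 11 and 0 UMIs in WT, preleukemic, T-ALL#1 and T-ALL#2. Cycling DP cells held 71, 1, 2 and 0 Tet2 UMIs in that order, too few for the low-count filter of the test. Over all cells of each state, DESeq2 gave -4.44 in non-cycling cells (adjusted p = 1.8e-05) and -4.98 in cycling cells (adjusted p = 0.000199).

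Between single libraries, which have no replicate test, a ratio was called when it was at least 2-fold, its exact interval left out 1, and a level reached 20 CPM. Non-cycling Tet2 was 4.50-fold lower in preleukemic than in WT (exact interval 3.84 to 5.29), a comparison in which 9.96% of 6648 genes were called. It was 28.7-fold lower in T-ALL#1 than in WT (19.7 to 43.2, 16.4% of 6579 genes called) and 98.7-fold lower in T-ALL#2 (38.4 to 364, 40.3% of 6489 genes called). Against the preleukemic library, which was under the level limit, T-ALL#1 was 6.37-fold lower (4.31 to 9.73) and T-ALL#2 21.9-fold lower (8.44 to 81.2). These ratios share their WT or preleukemic values and are not independent of each other.

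The cells with a Tet2 UMI were 14.2%, 4.59%, 0.865% and 0.531% of non-cycling and 16.7%, 4.23%, 0.759% and 0.0818% of cycling cells. The order of the shares ran against the order of depth per cell, and at 2000 UMIs per cell they were 7.69%, 2.15%, 0.281% and 0% of non-cycling cells. In the barcodes of T-ALL#2 with the fewest UMIs, far under the limit for a called cell, Tet2 had 0 of 1814232 UMIs, which allows up to 2.03 CPM. The neighbouring genes of Tet2 on chromosome 3 with the highest levels, chosen after their values were seen, are given for comparison over all cells of WT, preleukemic, T-ALL#1 and T-ALL#2. Ppa2, the nearest of them, stood at 47.1, 35, 51.2 and 29.6 CPM and Ints12 at 18.3, 21.9, 14.2 and 10.5 CPM. Aimp1 stood at 145, 185, 208 and 253 CPM, Gstcd at 11.7, 12.8, 14.5 and 11.9 CPM and Tbck at 24.9, 23.8, 15.4 and 7.92 CPM, against 31.5, 6.78, 0.777 and 0.138 CPM for Tet2 itself.

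**Figure D3:**
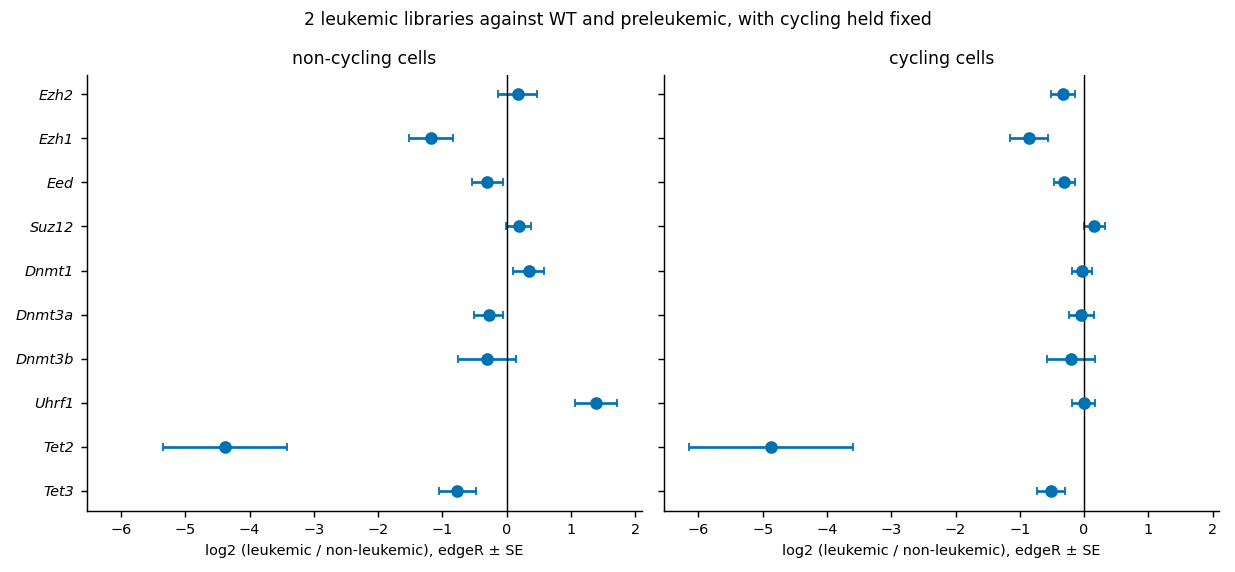
Log2 difference (edgeR ± SE) of the 2 leukemic libraries from WT and preleukemic for each gene, in non-cycling cells (left) and cycling cells (right). Tet2 lies near -4.4 and -4.9, and Uhrf1 at 1.39 in non-cycling cells but at -0.01 in cycling cells. No value passed an adjusted p under 0.05.

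Uhrf1, by value, was higher in the leukemias in non-cycling cells and not in cycling cells. Its non-cycling levels in T-ALL#1 and T-ALL#2, 59.8 and 44.9 CPM, lay above 18.7 in WT and 31.7 in preleukemic, with a fitted log2 difference of 1.39 ± 0.32 (edgeR adjusted p = 0.121, DESeq2 adjusted p = 0.007). Its cycling levels overlapped, with a difference of -0.01 ± 0.18 (edgeR adjusted p = 0.983). The difference between these 2 contrasts was tested as an interaction, in which edgeR called 3 of 11861 genes (0.0253%) and none of the 10. For Uhrf1 it was -1.44 ± 0.30 (unadjusted p = 0.0021 in edgeR, adjusted p = 0.199), and DESeq2 gave -1.45 (adjusted p = 0.00453). Without the preleukemic library the interaction was -1.91 (edgeR adjusted p = 0.00134) and the non-cycling difference 1.81 (edgeR adjusted p = 0.0464). Without WT they were weaker, -1.01 (edgeR adjusted p = 0.117) and 1.04 (edgeR adjusted p = 0.232), and over each library left out they ranged from -1.91 to -1.01 and from 1.04 to 1.81. In DP cells alone the interaction was -1.70 (edgeR adjusted p = 0.000414).

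The share of S phase cells among non-cycling cells, 9.88%, 17.3%, 25.5% and 50.3%, was higher in both leukemias, as was Uhrf1, but it was highest in T-ALL#2 and Uhrf1 in T-ALL#1. Uhrf1 was therefore also read with these cells left out. In T-ALL#2 this left 374 of 753 non-cycling cells, with a median of 7444 UMIs in place of 11194. Depth thus changed along with S phase, and the part of each in Uhrf1 was not tested. With S phase cells left out, non-cycling Uhrf1 stood at 13.5, 15.8, 39.7 and 13.5 CPM. On CPM, T-ALL#2 was thus at the level of WT, on 43 UMIs, and T-ALL#1 alone stayed above the others. The median gene then stood at a log2 ratio to WT of -0.53 in T-ALL#2 and -0.12 in T-ALL#1, a shift that CPM does not remove. The T-ALL#1 ratio to WT remained above 2-fold (log2 ratio 1.56 against 1.68 with these cells) and that of T-ALL#2 did not. The fitted leukemic difference of Uhrf1 was then 1.13 (edgeR adjusted p = 0.242) and the interaction -1.17 (edgeR adjusted p = 0.18). Dnmt1 was also lower without these cells, with non-cycling levels of 52.3, 49.0, 36.6 and 30.9 CPM once they were left out. Its leukemic difference then changed sign, from 0.34 ± 0.24 to -0.27, and neither value passed the test. Ezh2, at 123, 184, 134 and 94.2 CPM without them, likewise went from 0.17 ± 0.30 to -0.13.

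Ezh1 was lower in both leukemias in both states. Non-cycling levels of 19.8 and 8.89 CPM lay below 35.8 and 44.3, and the fitted log2 difference was -1.18 ± 0.34 (edgeR adjusted p = 0.147, DESeq2 adjusted p = 0.0491). In cycling cells it was -0.86 ± 0.30 (edgeR adjusted p = 0.201). T-ALL#2 was 4.98-fold under preleukemic (exact interval 3.97 to 6.33), where 36.2% of 6472 genes were called, and T-ALL#1 2.24-fold (1.98 to 2.52), where 15.5% of 6580 genes were. The median gene stood at a log2 ratio of -0.56 in T-ALL#2 against preleukemic and -0.14 in T-ALL#1, so part of each ratio is shared by most genes. On TMM scaling, which removes this shift, the T-ALL#2 log2 ratio of Ezh1 was -1.78 and that of T-ALL#1 fell under 2-fold, at -0.99.

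Tet3, lower by value in both leukemias, had -0.77 ± 0.28 in non-cycling cells (unadjusted p = 0.04 in edgeR, adjusted p = 0.184) and -0.52 ± 0.21 in cycling cells. Its T-ALL#2 level, 32.3 CPM in non-cycling cells, was 2.82-fold under preleukemic and 3.37-fold under WT. On TMM scaling the ratio to preleukemic was not called. The remaining genes, Ezh2, Eed, Suz12, Dnmt1, Dnmt3a and Dnmt3b, had log2 differences from -0.31 to 0.34 in non-cycling cells and from -0.33 to 0.16 in cycling cells, with edgeR adjusted p of 0.334 to 0.915. Among single-library ratios, Dnmt3a of T-ALL#2 against preleukemic and Eed of T-ALL#2 against WT were called at log2 -1.07 and -1.0 on CPM, and neither on TMM scaling. Over all 10 comparisons of single libraries in both states, 13 ratios of the set were called, 12 of them in non-cycling cells. Against WT in non-cycling cells, T-ALL#2 had 5 of 9 ratios called, where 40.3% of all genes were. T-ALL#1 had 2 of 9 called (16.4% of all genes) and preleukemic 1 of 9 (9.96%). Against preleukemic, T-ALL#2 had 3 of 8 called (36.2%) and T-ALL#1 had 1 of 8 (15.5%). Whether the set was called more often than all genes was not tested. Each cycling comparison tested 7 ratios of the set. In cycling cells no ratio of the set was called on TMM scaling, and on CPM the only one was Tet3 of T-ALL#2 against WT, 2.42-fold lower. There, 24.9% of genes were called, against 6.52% for preleukemic over WT, 10.6% for T-ALL#1 over WT, 8.22% for T-ALL#1 over preleukemic and 16.8% for T-ALL#2 over preleukemic.

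The balance of both PRC2 enzymes was read as the Ezh2 share of Ezh1 plus Ezh2 UMIs, which needs no scaling between libraries. In non-cycling cells the share was 77.2% in WT (exact 95% interval 75.3 to 79.0), 81.2% in preleukemic (80.1 to 82.3), 88.0% in T-ALL#1 (86.8 to 89.1) and 93.6% in T-ALL#2 (92.1 to 94.9). With S phase cells kept among them, the 4 intervals did not overlap, and both leukemias lay above both non-leukemic libraries. Shares without S phase cells were not computed. With those cells left out, Ezh2 and Ezh1 had 1333 and 406 UMIs in WT and 2961 and 793 in preleukemic. T-ALL#1 then had 1546 and 257, against 2776 and 380 with them. T-ALL#2 had 299 and 39, against 1189 and 81 with them. In cycling cells the share was 97.5%, 96.6%, 97.7% and 98.3%, within 2 percentage points in all libraries. The non-cycling difference held by value in DP cells, at 83.3% and 86.0% in WT and preleukemic against 89.9% and 93.7% in the leukemias. Among Il2ra-positive DN cells the shares were 82.9%, 82.8%, 86.8% and 96.2%. The order of WT and preleukemic did not hold under other weightings, with 81.0% and 81.1% on thinned cells and 78.0% and 77.9% as a mean over cells. Both leukemias stayed above both, at 89.8% and 94.8% on thinned cells and 86.3% and 91.2% as a mean over cells. With 1 animal per point, these intervals cover counting error only.

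**Figure D4:**
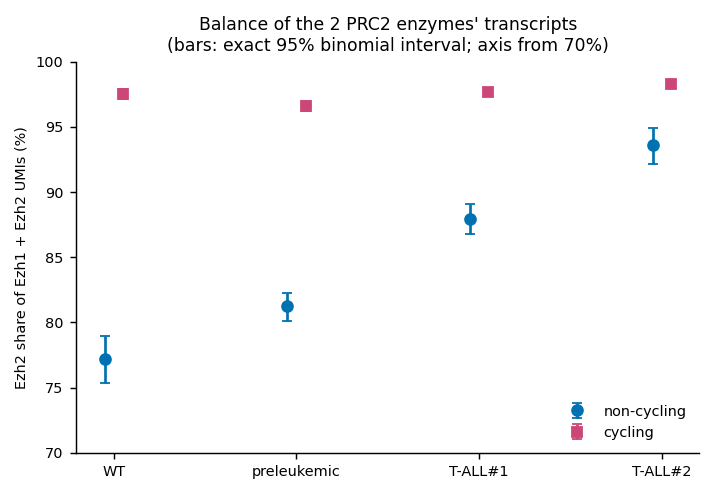
Ezh2 share of the summed Ezh1 and Ezh2 UMIs by library, in non-cycling (circles) and cycling cells (squares), with exact 95% binomial intervals. The axis starts at 70%. Circles climb from 77.2% in WT to 93.6% in T-ALL#2, whereas squares stay between 96.6% and 98.3%.

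Thymocytes pass from double-negative (DN) cells with Il2ra (CD25) to double-positive (DP) cells with Cd4 and Cd8a, then to cells with Cd4 or Cd8a alone. Cells were classed by detection of these genes, and cells with none of them were called triple-undetected. Immature single-positive cells, which come before DP cells, are not separated here from later cells with Cd8a alone. The paper reports lower Cd4 and Cd8a mRNA in preleukemic thymocytes, so its classes there may not match stages. Detection also follows depth: non-cycling T-ALL#2 DP cells were 117 at full depth and 28 at 2000 UMIs per cell. Preleukemic non-cycling cells were mostly triple-undetected, 2904 of 4251, whereas 1593 of 3350 in WT were DP. Non-cycling Il2ra-positive DN cells, of which there were 34, 270, 149 and 150, were tested against DP cells with the library as a block. edgeR called 5.57% of 8593 genes and none of the 10, of which 3 had an unadjusted p under 0.05.

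Dnmt3b came closest to a stage difference. It stood at 43.2, 13.3, 9.23 and 3.78 CPM in Il2ra-positive DN cells against 1.88, 1.60, 2.25 and 4.70 CPM in DP cells, so it was higher in DN cells of WT, preleukemic and T-ALL#1 and not of T-ALL#2. The log2 difference was 2.62 ± 0.70 (edgeR adjusted p = 0.0582), 3.29 (edgeR adjusted p = 0.0288) without T-ALL#2 and 1.64 (edgeR adjusted p = 0.122) without WT. These levels rest on 14, 28, 10 and 8 UMIs in DN cells and on 9, 1, 18 and 5 UMIs in DP cells. DESeq2 called it at 2.47 (adjusted p = 0.0352), and in both leukemias alone it was 1.22 (edgeR adjusted p = 0.502). In cycling cells Dnmt3b stood at 26.5 and 18.3 CPM in Il2ra-positive DN cells of WT and preleukemic, against 3.20 and 5.06 CPM in DP cells. In the leukemias the values lay closer, 6.09 against 5.87 CPM in T-ALL#1 and 4.82 against 3.47 CPM in T-ALL#2. Within Il2ra-positive DN cells, the rise of Dnmt3b with cycling was not seen in every library. By value, cycling cells were lower in WT and T-ALL#1 and higher in preleukemic and T-ALL#2, with overlapping exact intervals.

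Uhrf1 stood at 145, 53.1, 74.8 and 55.7 CPM in non-cycling Il2ra-positive DN cells and at 19.6, 33.6, 53.6 and 31.9 CPM in DP cells. The DN value was the higher in each library, with a log2 difference of 1.29 ± 0.47 (edgeR adjusted p = 0.182, DESeq2 adjusted p = 0.0397). Without WT, whose DN cells were the fewest, it was 0.72 (edgeR adjusted p = 0.0199), and on thinned cells 1.66 (edgeR adjusted p = 0.00277). With S phase cells left out it was 0.59 (edgeR adjusted p = 0.617). The Uhrf1 excess of the leukemias over WT stood in DP, Cd4 alone and Cd8a alone cells, and was turned round in Il2ra-positive DN cells. Non-cycling Cd8a alone cells, for example, held 15.8 CPM in WT, 41.3 in preleukemic, 71.9 in T-ALL#1 and 46.9 in T-ALL#2.

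Tet2 differed between libraries within each stage class and also between classes within a library. In WT it ranged from 24.7 CPM in Il2ra-positive DN cells to 45.5 in Cd8a alone cells among non-cycling cells. In T-ALL#1 no non-cycling class exceeded 4.32 CPM and in T-ALL#2 none exceeded 2.78 CPM, each below every WT class. The preleukemic classes lay between, from 8.05 to 29.5 CPM, where the highest value rests on 6 UMIs in 30 cells and lies above the lowest WT class. Preleukemic DP cells held 20.8 CPM (exact interval 11.1 to 35.6) against 8.05 in Cd8a alone cells (5.87 to 10.8). In WT cycling cells Tet2 stood at 39.9 CPM in Cd4 alone cells (30.4 to 51.3) and at 11.3 CPM in DP cells (8.86 to 14.3). Non-cycling WT cells of these classes held 42.9 CPM (36.8 to 49.7) and 44.5 CPM (38.7 to 50.9). The fall with cycling was thus not seen in WT Cd4 alone cells, and each other WT class was lower in cycling cells by value. No cycling class of the leukemias exceeded 1.46 CPM. Preleukemic cells also carried the highest summed level of 4 gamma-delta T cell markers (Trdc, Tcrg-C1, Sox13, Maf). The sum was 1632 CPM in non-cycling cells against 127 in WT, 52.0 in T-ALL#1 and 181 in T-ALL#2. All 4 markers were detected in every library. Surface staining in the paper found no increase of gamma-delta thymocytes in preleukemic mice, and the paper proposes germline transcription of such gene segments. The part of cells with these markers in the preleukemic Tet2 level was not tested.

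**Figure D5:**
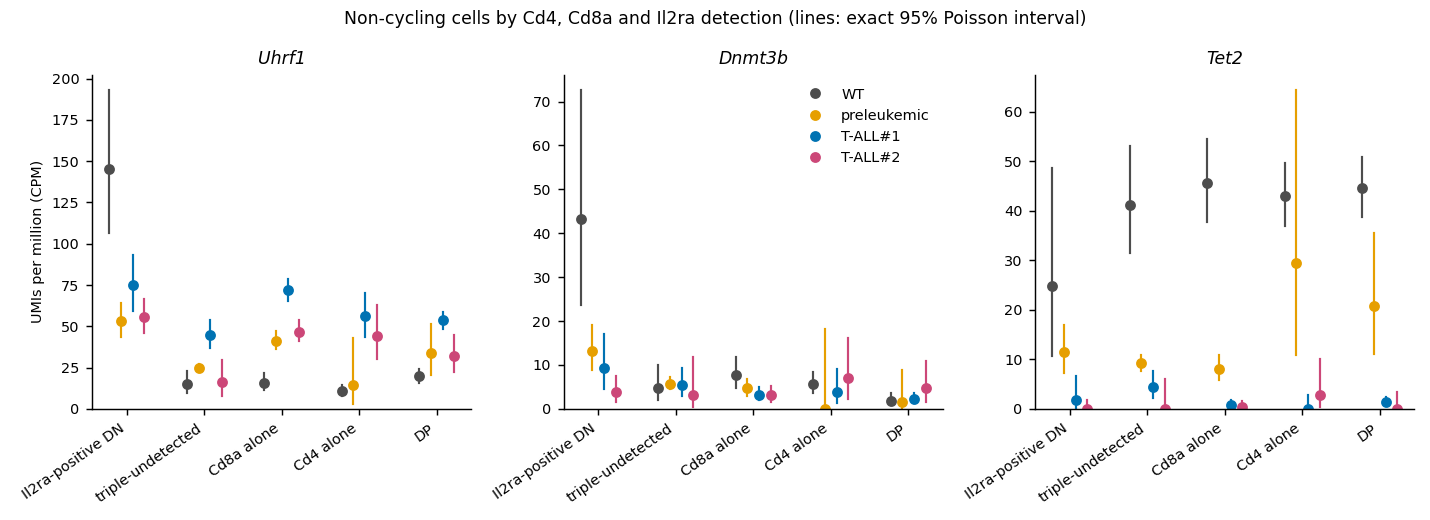
CPM of Uhrf1, Dnmt3b and Tet2 in non-cycling cells, by the detection of Cd4, Cd8a and Il2ra and by library, with exact 95% Poisson intervals. Uhrf1 and Dnmt3b are highest in the 34 Il2ra-positive DN cells of WT, and Tet2 is near 0 in every class of both leukemias.

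Ezh2 and Suz12 gave no called stage difference. Ezh2 was -0.12 ± 0.16 between Il2ra-positive DN and DP cells without cycling. In cycling cells its highest class was DP in WT, 671 CPM against 335 in Il2ra-positive DN cells, and in preleukemic, 535 against 375, whereas in T-ALL#1 it was 385 against 369 and in T-ALL#2 250 against 286. Suz12 was -0.41 ± 0.17 in the stage fit (unadjusted p = 0.028 in edgeR, adjusted p = 0.148).

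Other genes of the same pathways were counted from lists of known members. Of 8 accessory subunits of PRC2, 5 rose and 2 fell in cycling cells, beside 26.1% and 26.5% of all genes. Phf19, a Polycomb-like subunit that helps bring PRC2 to chromatin, rose by 2.28 ± 0.26 on the log2 scale. The histone-binding subunits Rbbp7 and Rbbp4 rose by 1.36 ± 0.10 and 0.94 ± 0.11. Phf1, the sister gene of Phf19, fell by 1.37 (SE 0.14), and Jarid2, a subunit of another form of the complex, fell by 0.87 (SE 0.11). The list median was 0.66 beside -0.04 for all genes.

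Of 23 genes of PRC1, the second Polycomb complex, 6 rose and 6 fell, near the 26.1% and 26.5% of all genes, and the list median was -0.08. Cbx2 rose by 0.80 ± 0.16, L3mbtl2 by 0.64 ± 0.09 and Pcgf6 by 0.64 ± 0.13, whereas Cbx7 fell by 1.09 (SE 0.18), Phc3 by 0.75 (SE 0.08) and Cbx8 by 0.59 (SE 0.12). Cbx2 and Cbx7 are alternative subunits that read the mark PRC2 writes. Of the genes that remove the Polycomb marks, 3 of 6 tested fell and none rose, where 26.5% of all genes fell and 52.6% were called in either direction. These were the H3K27 demethylases Kdm6b, which fell by 0.87 (SE 0.11), and Kdm6a, which fell by 0.48 (SE 0.08), and Asxl2, a partner of the H2A deubiquitinase Bap1, which fell by 0.25 (SE 0.09). The seventh of that list, Y-linked Uty, was not tested.

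Of 11 other DNA methylation genes tested, 4 rose and 4 fell in cycling cells, beside 26.1% and 26.5% of all genes, with a list median of -0.02. Hells, a chromatin remodeller needed for DNA methylation, rose by 2.57 ± 0.29, the base excision enzyme Mbd4 by 0.90 ± 0.20 and Mbd3, a subunit of the NuRD complex, by 0.54 ± 0.09. Tet1, the third Tet gene, fell by 0.84 (SE 0.10), and Zbtb33, a methyl-DNA binding gene, fell by 0.35 (SE 0.09). In the leukemic comparisons and the interaction no gene of these lists was called. Between Il2ra-positive DN and DP cells, the PRC2 accessory genes Epop (2.54 ± 0.53, edgeR adjusted p = 0.0208), Mtf2 (0.85 ± 0.16) and Rbbp7 (0.67 ± 0.15) were higher in DN cells and the methyl-DNA reader Mbd2 was lower (-0.60 ± 0.14).

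The genes most like each member were ranked by Pearson correlation of log levels over 39 sums of cells (library by cycling by stage), among 5767 genes outside those used to class cells. The sums share libraries, depth and cycling, so the values are descriptive. Ezh2 was closest to Rpa3 (r = 0.967), a subunit of the single-strand DNA binding complex of replication, then Hist1h4d (0.949) and Nsd2 (0.948). Dnmt1 was closest to Ncapg (0.978), a condensin subunit, Pcna (0.976), the sliding clamp of replication, and Tmpo (0.970). Uhrf1 was closest to Anp32e (0.957), Mrpl14 (0.949) and Dtymk (0.949). Suz12 was closest to Tubg1 (0.916), Hist1h1e (0.905) and Hnrnpu (0.898), and Eed to Me2 (0.932), Rheb (0.929) and Stip1 (0.902). Ezh1 was closest to Ctsd (0.930), Txnip (0.929) and Fnbp1 (0.923). Dnmt3a was closest to Cd37 (0.909), Arhgap15 (0.908) and Ctsa (0.906), and Dnmt3b to Wdr3, Cebpz and Uck2 at lower values of 0.787, 0.761 and 0.754. Tet2 was closest to Ifi209 (0.923), Grcc10 (0.920) and Tap1 (0.916), and Tet3 to Arhgap45 (0.963), Cflar (0.943) and Ppm1b (0.939). Between members, Ezh2 had r = 0.896 with Dnmt1, 0.886 with Suz12 and -0.418 with Ezh1 over the same sums.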

How the data were processed

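The authors deposited UMI counts per gene and barcode, not normalized. Their matrix headers name Cell Ranger 3.0.2 for WT, preleukemic and T-ALL#1 (called cells) and Cell Ranger 4 for T-ALL#2 (every barcode), and the submitters' processing notes name mm10. Which library used which of the chemistry versions in the labels is not given. Gene positions are from GENCODE M21 (GRCm38), in which 30934 of 31053 identifiers were found. The opposite-strand genes Gm26625, Gm26563, Dnmt3aos, Dnmt3bos and Gm42567 overlap Ezh2, Suz12, Dnmt3a, Dnmt3b and Tet2 and were counted separately. Whether counting used strand is not given in the sources used here.

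Each sample was mapped by its GEO title. UMIs were summed over the cells of each class and library, and CPM is the UMIs of a gene per 1000000 UMIs of the sum. CPM intervals are exact Poisson, shares of cells and UMIs Clopper-Pearson, and ratio intervals exact conditional binomial, all at 95%; they cover counting error only. Genes with at least 10 UMIs in at least 50% of the sums and 15 in all were tested with edgeR 4.0.16 (TMM, robust quasi-likelihood) in R 4.3.3, adjusted by Benjamini-Hochberg over all genes. Mki67 and Top2a, or Cd4, Cd8a and Il2ra, were left out where they defined the classes. The fits on cycling and on stage hold library as a block because both sums of a library come from 1 animal. With 1 to 2 animals per group, p-values of the leukemic fits rest on 2 residual degrees of freedom. The tests were checked on simulated data. Alternatives were DESeq2 1.42.0, no filter, each library left out, no block, cells thinned to 2000 UMIs, an upper limit on genes per cell (mean plus 3 SD, as in the study's methods), S phase cells left out, at least 2 UMIs for cycling, DP cells alone, B, myeloid and erythroid cells left out, and other scalings of ratios. Doublets were limited only by that alternative. Named genes were all members, per list the 3 with the largest rise and the 3 with the largest fall among those called, and per member the 3 genes with the highest Pearson r of log2(CPM + 1) over sums of at least 20 cells, among genes with a mean of at least 20 CPM. One gene that this rule selects is not reported here. The members, lists and tests were chosen with earlier results of these data known.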

Additional observations from a re-analysis of the deposited data

Results flagged for a closer look

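Barcodes of T-ALL#2 without a called cell were used in no comparison. Those with the fewest UMIs, far under the limit for a called cell, were summed here. Barcodes between these and the called cells were in neither set. The 1187978 barcodes summed held 1814232 UMIs, and 9 of the 10 genes were above the limit of 3 UMIs there. Their levels were 134.5 CPM for Ezh2 (239 in cells), 7.72 for Ezh1 (5.77), 31.4 for Eed (44.0), 81.6 for Suz12 (124), 105.8 for Dnmt1 (126), 28.1 for Dnmt3a (42.8), 6.06 for Dnmt3b (5.16), 95.4 for Uhrf1 (144) and 19.3 for Tet3 (27.5). The levels of Ezh1 and Dnmt3b, on 14 and 11 UMIs, had exact intervals of 4.22 to 12.9 and 3.03 to 10.8 CPM, which hold the level in cells. The part of this free RNA in the non-cycling levels of T-ALL#2 was not tested. No such barcodes of the other libraries were analysed here.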

How the results depend on the processing

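Leaving out a library leaves 1 sample in an arm of the leukemic fits, which is then assumed to vary like the others. Causes of the changes below were not tested. In cycling against non-cycling cells, no replicate block gave 922 genes and 5 of the 10, thinning to 2000 UMIs 3743 genes, and leaving out 1 library 4373 to 6283 genes and 9 to 10 of the 10. In non-cycling cells, the leukemic comparison called 1565 genes and 3 of the 10 with DESeq2, 911 and 1 with no filter, 132 and 1 in DP cells, 1 gene after thinning, and 0 to 420 genes and 0 to 2 of the 10 without 1 library. In cycling cells it called 1400 genes and 1 of the 10 with DESeq2, 691 with no filter, 187 after thinning, 6 with the upper limit on genes, 6 without B, myeloid and erythroid cells, 8 with cycling at 2 or more UMIs, 216 in DP cells and 0 to 7 without 1 library. The interaction called 108 genes and 1 of the 10 with DESeq2, 87 with no filter, 0 after thinning, 0 with the upper limit, 1 without other cell types, 31 without S phase cells, 1 with cycling at 2 or more UMIs, 250 and 1 of the 10 in DP cells, and 0 to 177 genes and 0 to 1 of the 10 without 1 library. The stage comparison called 2 of the 10 with DESeq2, Dnmt3b and Uhrf1, and its DESeq2 count over all genes is not given here. With edgeR it called 1255 genes and 2 of the 10 with no filter, 0 genes with no replicate block, and 252 and 1 of the 10 after thinning. It called 98 genes without S phase cells, 179 in both leukemias alone, and 8 to 576 genes and 0 to 1 of the 10 without 1 library. For single libraries, the mean over cells called 21 ratios in place of 13.

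Signs changed only for values that passed no edgeR test. For the leukemic difference in non-cycling cells, Ezh2 was -0.13 without S phase cells, -0.090 in DP cells and -0.14 to 0.52 without 1 library. Dnmt3b was 0.12 after thinning, Dnmt1 -0.27 without S phase cells and Dnmt3a 0.030 in DP cells. In cycling cells, Dnmt1 was 0.013 with no filter, 0.035 with the upper limit and -0.13 to 0.055 without 1 library. Dnmt3a was 0.0017 with no filter, 0.069 with cycling at 2 or more UMIs, 0.060 in DP cells and -0.21 to 0.12 without 1 library. Uhrf1 was 0.038 with no filter, 0.090 after thinning, 0.12 with the upper limit and -0.17 to 0.15 without 1 library. Dnmt3b was 0.064 after thinning, 0.51 in DP cells and -0.56 to 0.26 without 1 library, and Suz12 was -0.040 in DP cells. In the interaction, Eed was 0.095 with no filter, 0.078 after thinning, 0.040 with the upper limit, 0.12 without S phase cells and -0.10 to 0.038 without 1 library. Suz12 was 0.087, 0.027, 0.081, 0.066 and -0.15 to 0.076 in the same order. Dnmt3b was -0.15 to 0.54 without 1 library, and Dnmt1 0.21 without S phase cells. In the stage fit, Ezh2 was 0.057 after thinning and -0.31 to 0.0031 without 1 library. Tet3 was 0.026 after thinning, 0.22 in both leukemias alone and -0.22 to 0.059 without 1 library. Ezh1 was -0.25 to 0.12 and Dnmt3a -0.14 to 0.079 without 1 library, Dnmt3a 0.016 in both leukemias alone and Eed -0.12 without S phase cells.

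The Ezh2 share after thinning was 81.0% in WT and 89.8% in T-ALL#1 non-cycling cells, and 96.3%, 97.1% and 97.9% in WT, T-ALL#1 and T-ALL#2 cycling cells. With the upper limit it was 97.1% in WT cycling cells. As a mean over cells it was 95.2% in WT cycling cells, and in non-cycling and cycling cells 77.9% and 94.4% in preleukemic, 86.3% and 96.7% in T-ALL#1 and 91.2% and 97.6% in T-ALL#2.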
